A study of Mus musculus with 6 samples.

Results

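The genes described here are 7 regulators and markers of B cell fate: Bcl6, Bach2, Irf4, Prdm1, Xbp1, Sdc1 and Mitf. They were chosen by name for their roles in class switching, the germinal centre (GC) and plasma cell (PC) differentiation, out of 23420 genes in the count table. RNA-seq was carried out on splenic B cells in 2 groups, 3 Ahr+/+ and 3 Ahr-/- libraries, all on the C57Bl/6J background. The Ahr-/- mice were of the strain B6.129-Ahr tm1Bra/J, in which the aryl hydrocarbon receptor (AhR) is missing from all cells and not from B cells alone. The mice were older than 8 weeks, and B cells were enriched from spleen with a magnetic isolation kit. Cells of both genotypes received the same treatment, namely 8 h in IMDM with 5% FCS, 10 μg/ml anti-IgM and 20 ng/ml IL-4. FICZ, a ligand of AhR, was added at 250 nM over the final 4 h. There was no culture without FICZ or without anti-IgM, so every difference below is between genotypes of activated, ligand-exposed cells.

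An activated B cell can enter the GC, switch isotype or become an antibody-secreting PC. BCL6 and BACH2 are transcriptional repressors that hold cells in the B cell state, and both repress Prdm1. Prdm1 encodes Blimp-1, a repressor that shuts down the B cell programme as PCs form. IRF4 acts in both directions according to its dose, low amounts favouring the GC and high amounts favouring PCs. XBP1 builds the secretory apparatus of the PC, syndecan-1 (Sdc1, CD138) marks its surface, and MITF has been described as a brake on PC formation in resting B cells.

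In these cells the fate regulators did not move as one group. Prdm1 fell in Ahr-/- B cells to 64.1% of its Ahr+/+ level, whereas Irf4 and Xbp1 rose by 0.28 and 0.25 on the log2 scale. Bcl6, Bach2, Sdc1 and Mitf did not pass the test. Of the 7 genes, 3 were called by edgeR's quasi-likelihood test at an adjusted p under 0.05, against 17.9% of the 13682 genes tested. In the lower direction 1 of 7 was called against a background of 8.13%, and in the higher direction 2 of 7 against 9.79%. For 4 of 7 genes, the called ones and Bach2, no Ahr-/- library fell within the Ahr+/+ range, against 33.5% of all genes tested. The libraries of a genotype came from separate mice, as the description of the RNA sequencing states, so p-values measure the spread between mice of this experiment. In bulk RNA a lower level may reflect fewer cells that express a gene or less RNA in each of them, and these cannot be told apart.

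**Figure D1:**
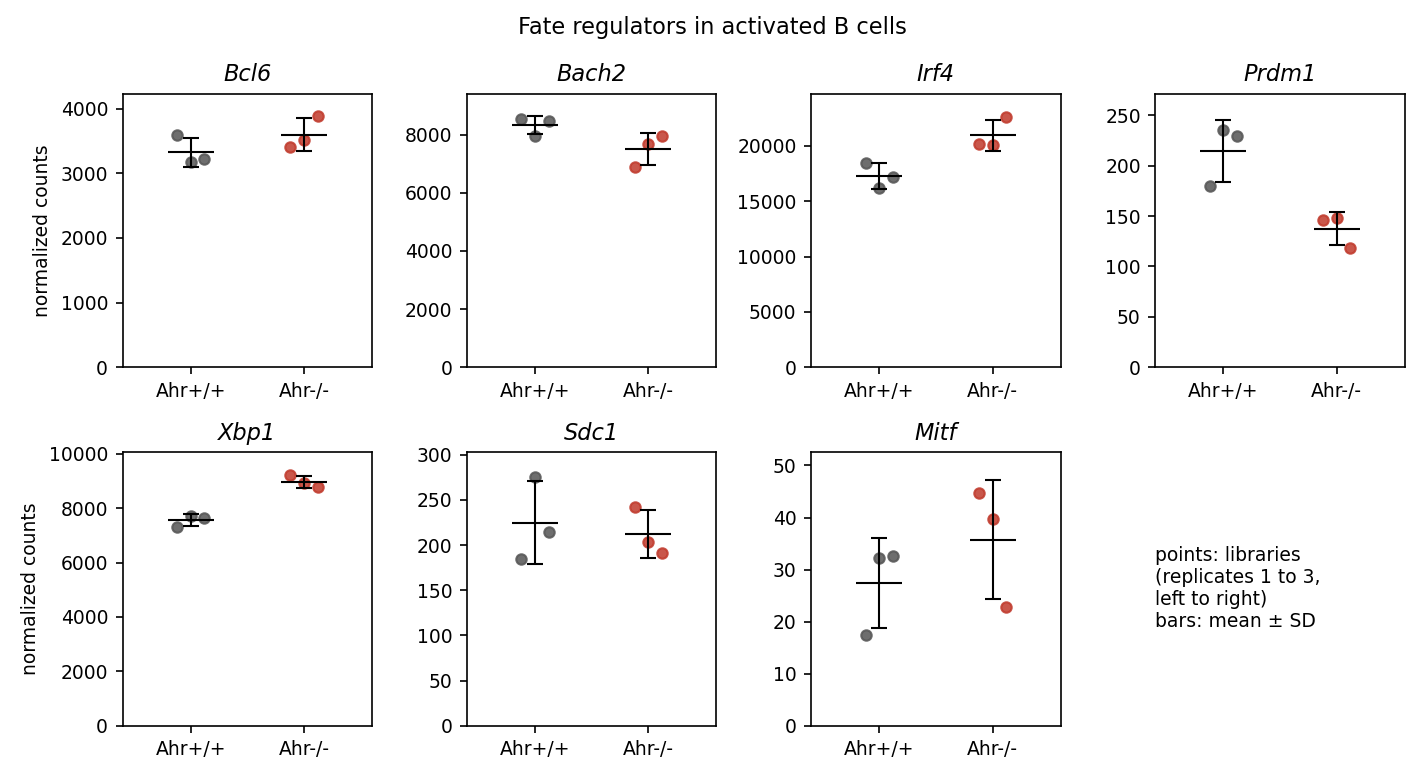
Normalized counts (y axis, from 0) of the 7 genes in each library of Ahr+/+ (grey) and Ahr-/- (red) B cells, with the mean ± SD of 3 libraries in black. Prdm1 was lower in every Ahr-/- library, Irf4 and Xbp1 were higher in every one, and the points of Bcl6, Sdc1 and Mitf overlapped.

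The promoters of the called genes are shown because AhR binds DNA with ARNT at dioxin response elements (DREs), whose core is GCGTG. Each line gives the 250 bases before the RefSeq start on the gene's own strand (GRCm38.p6), in lower case, with every match to the core or to its reverse complement CACGC in capitals. For Prdm1 this is chr10:44458749-44458998 on the minus strand, which lies inside the longest annotated extent of the gene. For Irf4 it is chr13:30748983-30749232 and for Xbp1 chr11:5520391-5520640, both on the plus strand.
Prdm1: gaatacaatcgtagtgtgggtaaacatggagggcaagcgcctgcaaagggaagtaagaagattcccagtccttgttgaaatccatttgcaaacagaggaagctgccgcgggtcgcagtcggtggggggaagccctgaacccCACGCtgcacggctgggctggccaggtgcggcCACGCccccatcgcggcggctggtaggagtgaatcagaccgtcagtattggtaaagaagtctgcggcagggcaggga
Irf4: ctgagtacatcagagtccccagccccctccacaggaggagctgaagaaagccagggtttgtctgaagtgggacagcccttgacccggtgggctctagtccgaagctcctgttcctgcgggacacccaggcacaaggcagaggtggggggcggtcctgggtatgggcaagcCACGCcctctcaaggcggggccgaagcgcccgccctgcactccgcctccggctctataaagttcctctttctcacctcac
Xbp1: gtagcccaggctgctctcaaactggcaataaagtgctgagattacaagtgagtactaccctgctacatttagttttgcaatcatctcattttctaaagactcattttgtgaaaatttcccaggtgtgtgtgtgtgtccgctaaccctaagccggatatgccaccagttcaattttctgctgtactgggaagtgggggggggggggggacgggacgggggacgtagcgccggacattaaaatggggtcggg

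Prdm1 carried 2 cores, both on the strand opposite to the gene, whose first bases lay 109 and 77 bases before the start (chr10:44458853-44458857 and chr10:44458821-44458825). Irf4 carried 1 core, also on the opposite strand, 80 bases before the start (chr13:30749153-30749157). No copy was found in the Xbp1 window. Among the genes that were not called, the Sdc1 window held 1 core on its own strand, 169 bases before the start (chr12:8771227-8771231), shown here with the bases on either side.
Sdc1: cgatcctaggagGCGTGgaagggggtgtg

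The windows of Bcl6, Bach2 and Mitf held none, with 2 windows searched for Bcl6 and 3 for Mitf. The only Bach2 window, with upstream bases chr4:32417185-32417434, lies inside the longest annotated extent of the gene. The start of that extent, chr4:32238804, was not searched. In all, 3 of 7 genes held a core within the window of 300 bases (250 before and 50 after the start), against 9500 of 27025 genes in the RefSeq table (35.2%). At the level of single windows the share was 32.4%, or 10639 of 32851. The gene that fell and 1 of the 2 that rose held the core, so its presence did not separate the directions in these 7 genes. A match of 5 letters describes the sequence and is no evidence of binding.

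Levels of different genes were compared as normalized counts per kb of annotated exon. Irf4 was the most abundant of the 7 at 3521 ± 237 per kb in Ahr+/+ cells (SD, n = 3), followed by Xbp1 at 2326 ± 66.0. Bach2 (837 ± 31.4) and Bcl6 (496 ± 33.8) followed. The other genes were far lower per kb, Sdc1 at 59.0 ± 12.2, Prdm1 at 38.5 ± 5.47 and Mitf at 4.42 ± 1.39. The order was the same in Ahr-/- cells, at 4273 ± 288, 2764 ± 69.3, 755 ± 54.9, 537 ± 37.8, 55.7 ± 6.94, 24.7 ± 2.98 and 5.77 ± 1.85 per kb. Within each genotype the ranges of mean ± SD of neighbours in this order did not overlap. These were therefore cells with abundant Irf4, Xbp1, Bach2 and Bcl6 transcripts and little Prdm1 and Sdc1.

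Bcl6 (chr16:23965052-23988852, minus strand) is the GC master repressor. Ahr+/+ libraries had 3586, 3168 and 3224 normalized counts of Bcl6, and Ahr-/- libraries had 3400, 3510 and 3882. The highest value belonged to Ahr-/- replicate 3, but the second highest was Ahr+/+ replicate 1, and the genotypes overlapped. The mean was 3326 ± 227 against 3597 ± 253 (SD, n = 3 each). The log2 fold change (Ahr-/- over Ahr+/+ throughout) was 0.11 with a standard error (SE) of 0.058 and a 95% interval from -0.01 to 0.24 (adjusted p = 0.21). It was 0.055 without Ahr-/- replicate 3, 0.17 without Ahr+/+ replicate 1 and -0.11 when scaled to summed B cell markers, a setting described with Irf4 and Xbp1, and it passed in none of these.

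Bach2 (chr4:32238804-32586108, plus strand) restrains Prdm1 and is needed for class switching. It was measured at 8519, 7959 and 8475 normalized counts in Ahr+/+ and at 6896, 7678 and 7945 in Ahr-/- cells. Every Ahr-/- value was below every Ahr+/+ value, although Ahr+/+ replicate 2 and Ahr-/- replicate 3 were almost level. The log2 fold change was -0.15 (SE 0.051, 95% interval -0.26 to -0.03), with an unadjusted p of 0.015 and an adjusted p of 0.073. Without Ahr-/- replicate 3 it was -0.19 with an adjusted p of 0.017, without Ahr-/- replicate 1 it was -0.090 with an adjusted p of 0.23, and scaled to summed B cell markers it was -0.37 with an adjusted p of 6.4e-05. It also passed with no filter, with the DESeq2 Wald test and with a robust fit. Bach2 overlaps the antisense gene Bach2os and 2 further annotated genes on its own strand, and the strand setting of the counting is not given in the sources used here, so reads of these genes may be included.

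Irf4 (chr13:30749226-30766976, plus strand) encodes the transcription factor that directs switching and PC formation with its partners of the ETS and AP-1 families. Its normalized counts were 18474, 16154 and 17169 in Ahr+/+ libraries. They were 20214, 20059 and 22579 in Ahr-/- libraries. The lowest Ahr-/- library was above the highest Ahr+/+ library, and Ahr-/- replicate 3 was the highest of the 6. The mean rose from 17265 ± 1163 to 20951 ± 1412, a log2 fold change of 0.28 (SE 0.055, 95% interval 0.16 to 0.40, adjusted p = 0.0033).

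Xbp1 (chr11:5520659-5525893, plus strand), whose spliced product drives expansion of the endoplasmic reticulum, was the least variable of the 7. It was measured at 7311, 7712 and 7643 normalized counts in Ahr+/+ and at 9225, 8916 and 8787 in Ahr-/- cells. The gap between the genotypes was wider than the spread within either one. The mean rose from 7555 ± 214 to 8976 ± 225, a log2 fold change of 0.25 (SE 0.038, 95% interval 0.17 to 0.33, adjusted p = 5.1e-04). Counts per gene do not separate spliced from unspliced Xbp1 mRNA.

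Markers of B cells and of dendritic cells moved with these higher values. Of 10 B cell markers 6 rose, or 3 with a robust fit, and their summed level was 122559 to 132181 normalized counts in Ahr+/+ and 144312 to 153843 in Ahr-/- libraries. When the counts were scaled to this sum instead, a setting chosen after the data were seen that shifted the median of all genes by -0.23, the log2 fold change was 0.053 for Irf4 (adjusted p = 0.45) and 0.022 for Xbp1 (adjusted p = 0.78). Of 10 plasmacytoid dendritic cell markers 9 rose, Siglech by 2.23, and their summed level was 3593 to 4145 against 4766 to 5834. Conventional dendritic cell markers showed 5 higher and 1 lower of 9, at a sum of 1950 to 2297 against 2419 to 2686. The first of these sums was mostly Bst2 (mean 2127 against 2498, not called) and Pacsin1 (1248 against 1685). The second was mostly Sirpa (1299 against 1612) and Zbtb46 (552 against 418, the lower one). Neither sum therefore measures the share of dendritic cells. None of the dendritic cell markers was at 0 in all libraries, Irf4 is also expressed by dendritic cells, and the part of these cells in the Irf4 and Xbp1 values was not tested.

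Prdm1 (chr10:44437177-44528501, minus strand) had the largest change among the called genes. Blimp-1, its product, ends the B cell programme. Its raw counts were 185, 234 and 204 in Ahr+/+ and 85, 209 and 130 in Ahr-/- libraries. After normalization these were 180, 235 and 229 against 146, 149 and 119. Ahr+/+ replicate 1 was the lowest of its genotype and Ahr-/- replicate 3 the lowest of all, and the genotypes did not overlap. The mean fell from 215 ± 30.5 to 138 ± 16.6, a log2 fold change of -0.64 (SE 0.138, 95% interval -0.94 to -0.34, adjusted p = 0.0058). A larger absolute change was found in 12.5% of the genes tested.

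PC markers beside Prdm1 were mixed. Of 8 markers 2 fell and 1 rose, and their summed level was 12714 to 18850 in Ahr+/+ and 12146 to 14306 in Ahr-/- libraries, with overlap. This sum adds opposed changes. Igj, the most abundant, fell from a mean of 9656 to 5098 without overlap, whereas Slamf7 rose from 3253 to 4764. The higher count was 2 without Ahr-/- replicate 3 or with no filter, and the lower count was 1 with a robust fit. Tnfrsf17, which encodes the BCMA receptor of mature PCs, had 9 counts at most in any library, where a floor of 3 counts corresponds to 2.13 to 5.15 normalized counts. The part of a few PCs in the Prdm1 values was not tested.

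Sdc1 (chr12:8771323-8793715, plus strand) lies 26.7 Mb from Ahr on the same chromosome. Its normalized counts were 185, 276 and 215 in Ahr+/+ and 242, 203 and 191 in Ahr-/- libraries. The genotypes overlapped, and the highest library, Ahr+/+ replicate 2, set the sign of the difference. The log2 fold change was -0.10 (SE 0.145, 95% interval -0.42 to 0.21, adjusted p = 0.70), and 0.073 without that library. It was -0.23 without Ahr+/+ replicate 1, -0.19 without Ahr-/- replicate 1, -0.043 without Ahr-/- replicate 3 and -0.33 relative to summed B cell markers, and passed in none of these.

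Mitf (chr6:97807052-98021349, plus strand) was the scarcest of the 7, at 18, 32 and 29 raw counts in Ahr+/+ and 26, 56 and 25 in Ahr-/- libraries. Normalized values were 17.5, 32.2 and 32.6 against 44.6, 39.8 and 22.8. The lowest value came from an Ahr+/+ library and the second lowest from an Ahr-/- library, and the genotypes overlapped. The log2 fold change of 0.36 had an SE of 0.311 and a 95% interval from -0.32 to 1.04 (adjusted p = 0.49), and single libraries moved it widely. It was 0.11 without Ahr+/+ replicate 1, 0.22 without Ahr-/- replicate 1 or 2 and 0.61 without Ahr-/- replicate 3, and 0.14 relative to summed B cell markers, and passed in none of these.

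**Figure D2:**
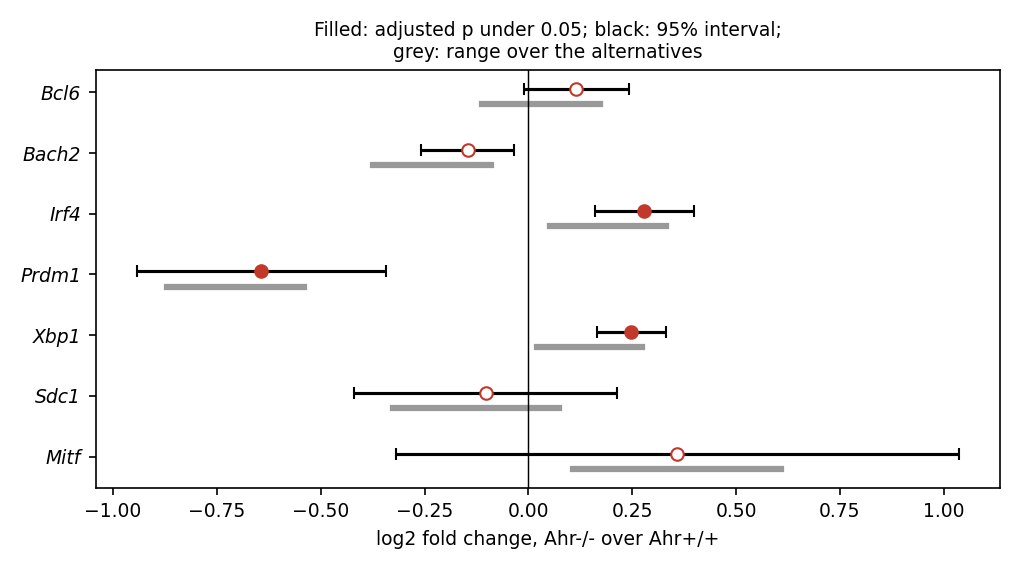
Log2 fold change of each gene (x axis, Ahr-/- over Ahr+/+) with its 95% interval in black and, in grey, the range over 17 alternative settings. Filled points passed an adjusted p of 0.05. The grey range of Prdm1 stayed between -0.87 and -0.54, whereas those of Bcl6 and Sdc1 crossed 0.

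For single genes the exact two-sided permutation test of 3 against 3 libraries can give no p below 0.1, and it gave this smallest value for the 4 genes without overlap. It gave 0.3 for Bcl6, 0.7 for Sdc1 and 0.4 for Mitf.

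Ratios of 2 members within the same library do not depend on any scaling between libraries. They are given on the log2 scale of raw counts, as a description chosen after the data were seen. The ratio of Prdm1 to Irf4 was -6.68, -6.10 and -6.23 in Ahr+/+ and -7.11, -7.08 and -7.57 in Ahr-/- libraries, a mean difference of -0.92 with no overlap. Prdm1 against Xbp1 likewise showed no overlap, at a difference of -0.89.

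The ratio of Irf4 to Bach2, a pair with opposed roles in PC formation, was 1.12, 1.02 and 1.02 in Ahr+/+ and 1.55, 1.39 and 1.51 in Ahr-/- cells, 0.43 higher. Xbp1 to Bach2 was 0.40 higher, without overlap. Bcl6 to Prdm1 went from 4.32, 3.75 and 3.81 to 4.54, 4.56 and 5.03, a difference of 0.75 without overlap. By contrast Irf4 to Xbp1 differed by 0.03 and overlapped, as did Prdm1 to Bach2 at -0.49. Bcl6 to Bach2 (0.26), Bcl6 to Irf4 (-0.17), Prdm1 to Sdc1 (-0.57) and Prdm1 to Mitf (-1.02) did not overlap either. The pairs reuse the same genes, so their ratios are not separate results. The share without overlap among other gene pairs was not computed. Prdm1 was thus lower relative to each of the other genes except Bach2, where the libraries overlapped.

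**Figure D3:**
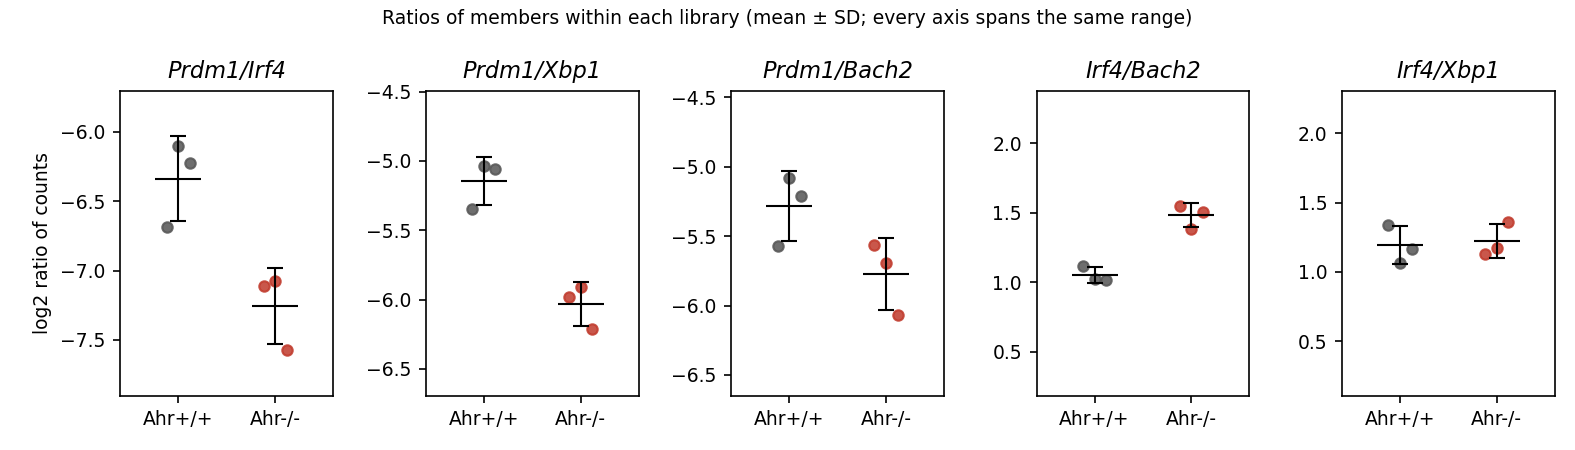
Log2 ratio of raw counts of 2 genes within each library (y axis, each panel spanning the same range) for Ahr+/+ (grey) and Ahr-/- (red) B cells, with the mean ± SD of 3 libraries. The genotypes separated for Prdm1/Irf4, Prdm1/Xbp1 and Irf4/Bach2 and overlapped for Prdm1/Bach2 and Irf4/Xbp1.

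The genes whose profiles over the 6 libraries were most like each member were found by the root mean square distance of centred log2 CPM among 11832 genes. Eaf2 was nearest to Prdm1 (distance 0.0486, log2 fold change -0.68, adjusted p = 0.0046) and Tmem154 was also among the nearest 3. Bri3, at a distance of 0.0150, and Rnh1 were among the nearest 3 to Xbp1. For Irf4 they were Unc13a, Slc23a2 and Plekhf2, and for Bach2 Zbtb39, Zswim6 and Kdm3a. Fam3c, Arhgap4 and Ccdc107 were nearest to Bcl6, Cyp39a1, Fuom and Ccnb1 to Sdc1, and Ifih1, Ermap and Il12rb1 to Mitf. No member was among the 3 nearest genes of another. Unc13a (11 to 26 raw counts, 0.23, adjusted p = 0.62), Cyp39a1 (14 to 28) and Fuom (10 to 21) were scarce. Their distances include much counting error, and no background of distances was computed.

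The surrounding programmes were read from gene lists, each counted beside the background shares given above and the median log2 fold change of all genes tested, 0.00. The GC list, the genes that accompany Bcl6, held 10 lower and 3 higher genes of 19, with a median of -0.53. The largest decrease was in a low-abundance transcript. Nuggc, a GC-associated nuclear GTPase, was at 57.3, 106 and 70.8 normalized counts in Ahr+/+ and at 6.87, 3.55 and 3.65 in Ahr-/- libraries (-4.16, adjusted p = 5.2e-06).

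Further decreases of the GC list were those of Gcsam, a regulator of lymphocyte motility (-3.06), and of Mef2b, a transcription factor that activates Bcl6, from 489 ± 68.5 to 96.2 ± 7.30 (-2.33, adjusted p = 4.7e-08). Bcl6 itself, as given above, did not pass the test while Mef2b was at 19.7% of its Ahr+/+ level. The lower count was 10 or 11 and the higher count 2 to 4 under all alternatives run.

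The PC list, the company of Prdm1, Xbp1 and Sdc1, held 3 lower and 2 higher genes of 16, with a median of -0.16. Igj, the joining chain of secreted IgM and IgA, was at 6535, 11988 and 10445 normalized counts in Ahr+/+ and at 5406, 5610 and 4278 in Ahr-/- libraries (-0.92, adjusted p = 0.0021, and 0.12 with a robust fit). Cd93, a receptor of long-lived PCs, fell by 1.24 and Cd28 by 0.86, whereas Slamf7 rose by 0.55 and Pou2af1, the OCA-B coactivator, by 0.32. Mzb1 (0.23, adjusted p = 0.13) and Ell2 (0.02, adjusted p = 0.86), which serve antibody folding and secretory mRNA processing, did not pass. Mzb1 did pass with no filter and without Ahr-/- replicate 3, where it was 0.34, and it was 0.14 without Ahr+/+ replicate 1. The higher count was 4 without Ahr-/- replicate 3.

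Genes repressed by Blimp-1 are the counterpart of Prdm1. Of 19 such genes 7 rose and 5 fell, with a median of 0.09. Pax5, the B cell identity factor, rose from 1354 ± 74.7 to 2118 ± 150 (0.65, adjusted p = 5.8e-06) and S1pr1, an egress receptor, by 0.63. Id3, an inhibitor of E proteins, fell from 1223 ± 69.2 to 436 ± 20.6 (-1.48). Myc (0.08, adjusted p = 0.13) and Spib (0.01, adjusted p = 0.95) did not pass, and Bcl6 belongs to this list too. Genes of this list thus moved in both directions.

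Genes repressed by BCL6, among them Prdm1 and Irf4, showed 7 higher and 3 lower of 19, with a median of 0.16. Cd44, an adhesion receptor, rose by 0.90, and the RNA of Cd69, an early activation marker that opposes egress, fell by 1.15. In a separate assay of activation markers after anti-IgM, the authors report no alteration of CD69 in Ahr-/- B cells. The corepressors that BCL6 recruits held 2 lower and 2 higher genes of 18. These were Tbl1xr1 (-0.41), Mta3 (-0.19), Hdac9 (0.70) and Kdm2b (0.13). Bcor and Ncor1 did not pass, at -0.16 and -0.06, although Bcor passed without Ahr-/- replicate 3 (-0.25) and was -0.048 without Ahr-/- replicate 1. The corepressor counts were small and unsteady, with 1 to 5 lower and 1 to 3 higher over the alternatives, 5 lower without Ahr-/- replicate 3, and 1 lower when replicate 1 or 2 of either genotype was left out. The higher count was 1 without Ahr+/+ replicate 1, Ahr+/+ replicate 3 or Ahr-/- replicate 2.

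Partners of IRF4 held 7 lower and 3 higher genes of 16, with a median of -0.02. Junb, the AP-1 partner that joins BATF and IRF4 on DNA, fell from 6954 ± 214 to 3122 ± 150 (-1.15, adjusted p = 2.6e-09). Fos fell by 0.64, Ikzf3, which encodes Aiolos, by 0.61 and Nfatc1 by 0.34, whereas Batf rose by 0.33. Without Ahr-/- replicate 2 the lower count was 4.

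Factors upstream of Irf4 and of class switching showed 6 higher and 3 lower of 16, Pax5, Irf8 (0.34) and Batf among the higher and Stat3 (-0.47) among the lower. The lower count was 1 without Ahr-/- replicate 2. Zbtb32, which restrains secondary responses, did not pass (0.21, adjusted p = 0.20), except without Ahr-/- replicate 3 (0.30), and was 0.13 without Ahr+/+ replicate 1 and 0.10 without Ahr-/- replicate 1.

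B cell identity factors held 8 lower and 2 higher genes of 18, or 4 higher with library size alone. Runx1 fell by 1.59, Id3 by 1.48, Klf2, a quiescence factor, by 0.94 and Tcf4, an E protein, by 0.68, whereas Pax5 and Irf8 rose.

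The genes of the XBP1 axis did not move together with Xbp1. Of 22 genes that activate XBP1 or are induced by it, 6 rose and 3 fell, with a median of -0.01. Ern1, the IRE1 endonuclease that splices Xbp1 mRNA, was at 571 ± 32.3 and 593 ± 66.2 (0.07, adjusted p = 0.62). Hspa5, the chaperone BiP, was at 63045 ± 1821 and 62031 ± 1782 (-0.02, adjusted p = 0.72, and 0.0020 with library size alone). Ssr3, a subunit of the translocon-associated complex, fell by 0.62 and Pdia6 by 0.18, whereas Atf6 and Sec61b rose by 0.17 and 0.16. The higher count was 1 to 3 whenever a library was left out. It was 1 without Ahr+/+ replicate 1, Ahr+/+ replicate 3 or Ahr-/- replicate 2, 2 without Ahr+/+ replicate 2, and 3 without Ahr-/- replicate 1 or 3.

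**Figure D4:**
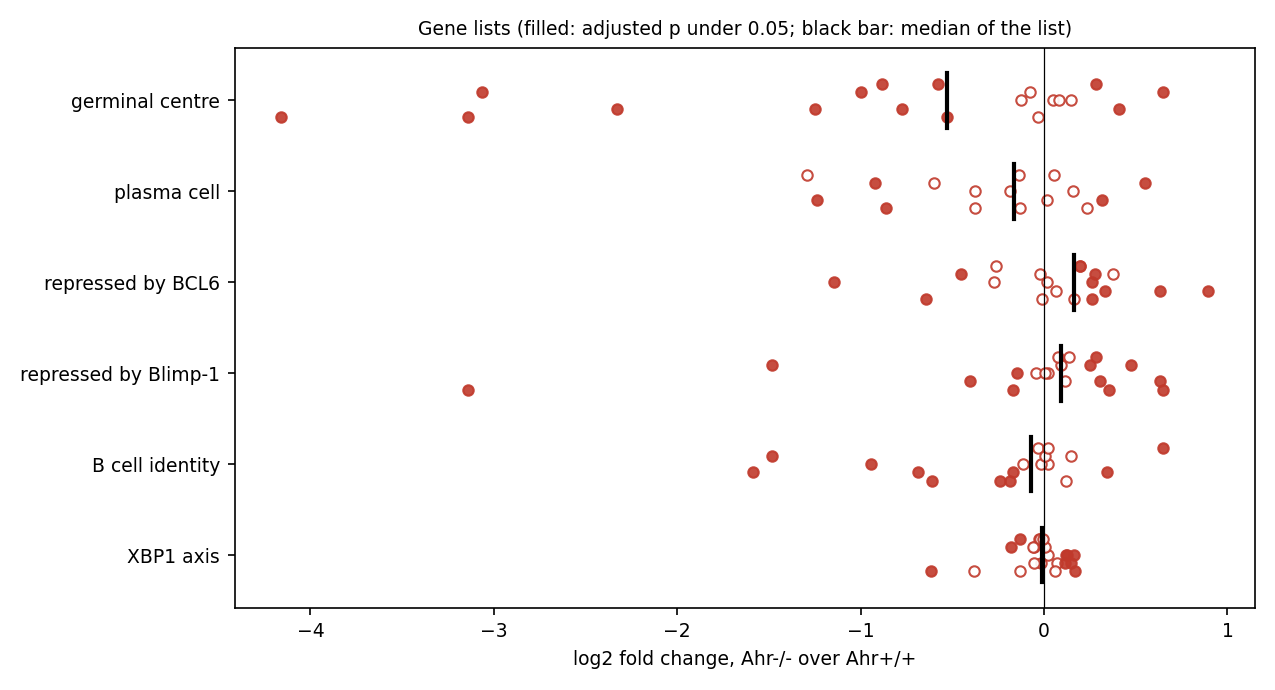
Log2 fold change (x axis, Ahr-/- over Ahr+/+) of each tested gene in 6 of the lists (rows), filled where the adjusted p was under 0.05, with the list's median as a black bar; vertical offsets only separate points. GC genes lay mostly on the left (median -0.53), and the median of the XBP1 axis was -0.01.

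BACH2 dimerizes with small MAF proteins and competes with NRF2 for their sites. Of 14 genes in this list 5 fell. The largest decrease was that of Nqo1, an established AhR target, from 1221 ± 47.6 to 53.8 ± 9.82 (-4.53). Txnrd1 fell by 0.52, Nfe2l2, which encodes NRF2, by 0.50 and Gclm by 0.29. The partners Mafk (0.09, adjusted p = 0.10) and Bach1 (0.09, adjusted p = 0.21) did not pass, nor did Hmox1, the classic BACH target (0.06, adjusted p = 0.88).

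MITF has close relatives in the MiT/TFE family. Of 13 tested genes in the MiT/TFE list 4 rose and 1 fell. Tfeb, a regulator of lysosome genes, rose from 797 ± 47.7 to 1161 ± 96.3 (0.55, adjusted p = 9e-05). Tfe3 (-0.05) and Tfec (0.60, adjusted p = 0.44) did not pass. Over 16 alternatives Tfe3 ran from -0.10 to -0.014 and Tfec from 0.18 to 1.44, and neither passed in any. Gpnmb, a target of these factors in pigment cells and macrophages, fell from 74.6 ± 27.8 to 6.05 ± 5.92 (-3.33, adjusted p = 2e-04). Without Ahr+/+ replicate 3 the higher count was 2.

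Among relatives of Sdc1 and heparan sulphate enzymes 3 of 13 fell and 2 rose. Sdc4 fell by 0.41 and Glce by 0.25, while Ndst1 rose by 0.25. The sulphatase Sulf2 rose by 1.06 at an adjusted p of 0.047, a call lost with DESeq2, with limma-voom and without Ahr+/+ replicate 1, Ahr+/+ replicate 3, Ahr-/- replicate 2 or Ahr-/- replicate 3, each leaving 1 higher gene. Sdc3 did not pass (-0.29, adjusted p = 0.57), and Sdc2 had 1 count at most in each library.

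Total counts were 22095096 to 53648787 per library. Ahr itself was at 69.6% of its Ahr+/+ level (13175 ± 682 against 9174 ± 472), a count over the whole gene that does not show the deleted part, whereas the AhR target Cyp1a1 fell from 5246 ± 242 to 5.36 ± 2.20 (-10.04). Hprt, a reference gene, was at 0.01. Other marker lists showed 3 lower and 2 higher of 8 for marginal zone B cells, 3 and 1 of 7 for B1 cells, and 1 and 1 of 12 for macrophages. Among mast cell markers 1 of 7 rose, among T cell markers 1 of 9 fell and among NK cell markers 3 of 6 rose. By edgeR 0 of 7 neutrophil and 0 of 3 red cell markers were called, with 1 and 0 at an unadjusted p under 0.05, 0 and 0 by DESeq2 and 1 and 0 by limma-voom. Without Ahr-/- replicate 3 the higher counts were 3 for B1 cells, 6 for macrophages and 3 for neutrophils. The macrophage count was 3 without Ahr+/+ replicate 2 and 0 without any of the others. NK cells had 1 higher marker when Ahr+/+ replicate 1 or 3 or Ahr-/- replicate 1 or 2 was left out, and marginal zone B cells had 1 without Ahr+/+ replicate 2 or 3 or Ahr-/- replicate 1 or 2.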

How the data were processed

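The authors deposited raw counts per gene symbol for each library, not normalized. Libraries were made with the TruSeq stranded mRNA kit and run on an Illumina HiSeq. The submitters' processing notes name TopHat2, HTSeq, DESeq and the build mm10, and the annotation and strand setting are not given in the sources used here. The authors' normalized counts and their comparison table of fold changes and p-values were not used. From the raw counts, genes reaching 10 counts in total were tested with edgeR 4.0.16 (R 4.3.3; TMM, quasi-likelihood, genotype only), adjusted by the Benjamini-Hochberg method over all genes tested. Normalized counts are counts divided by the TMM library size relative to the mean of the 6. Depth limits the scarce transcripts, and floors of 3 counts cover counting error only. Within a genotype, libraries differed beyond sampling noise (chi-square per degree of freedom 3.96 to 9.24). Alternatives were DESeq2 1.42.0, limma-voom (limma 3.58.1), other scalings, filters and thresholds, a replicate block and leaving out each library. Positions are from GENCODE (GRCm38, which is mm10) and promoters from RefSeq. In each list the 4 called genes with the largest change and at least 10 normalized counts in 1 genotype were named, beside genes listed for their function, and a few genes that the rule names are not reported here. The genes and lists were chosen with earlier results of these data known.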

Additional observations from a re-analysis of the deposited data

How the results depend on the processing

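The call of Prdm1 held in all 17 alternatives (-0.87 to -0.54, adjusted p 0.00017 to 0.034). Scaled to summed B cell markers, Irf4 (0.053) and Xbp1 (0.022) were no longer called, Bcl6 became -0.11, and Bach2 became -0.37 with an adjusted p of 6.4e-05. Irf4 and Xbp1 were called in the other 16. Bach2 passed with no filter (-0.15, adjusted p = 0.038), with the DESeq2 Wald test (-0.15, adjusted p = 0.025) and with a robust fit (-0.15, adjusted p = 0.05), and over the left-out libraries it ran from -0.19 to -0.090. Sdc1 then ran from -0.23 to 0.073, above 0 without Ahr+/+ replicate 2. The causes were not tested.

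At an adjusted p under 0.01 the calls over all genes were 1473, 690 lower and 783 higher, in place of 2453, 1113 and 1340. With 1 library left out the total was 1664 to 2601. With library size alone Hspa5 was at 0.0020. Over the left-out libraries the log2 fold change ran from -0.017 to 0.053 for Hprt, from -0.065 to 0.056 for Spib, from -0.011 to 0.13 for Ern1, from -0.14 to 0.24 for Hmox1, from -0.66 to 0.011 for Sdc3 and from -0.0081 to 0.049 for Ell2, none of which passed in any of these fits. Libraries with the same replicate number did not deviate together (correlations -0.105, 0.196 and -0.112). The fit with the replicate block called 2303 genes, 2217 of them shared with the fit without it, and changed no call of the 7 genes. For Mitf, at 18 to 56 raw counts, the 95% interval ran from -0.32 to 1.04.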
